A study of Mus musculus with 12 samples.

Results

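The genes described here are 10 genes of the unfolded protein response and the integrated stress response, namely Atf4, Ddit3, Chac1, Trib3, Asns, Hspa5, Xbp1, Ern1, Herpud1 and Sesn2, measured in mouse gastrocnemius muscle. They were chosen by name. Of the 37748 genes in the count table, 10 carried these names, each under a different Ensembl identifier. All 10 passed a filter on low counts that kept 16679 genes for testing, and the lowest count of any of them in any mouse was 7, for Trib3.

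RNA was sequenced from the muscle of 12 mice aged 13 weeks, 3 in each of 4 groups. Control mice were ACTA1-MCM/+, which carry a tamoxifen-inducible Cre (MerCreMer) under the human skeletal actin promoter ACTA1, and received no tamoxifen (TMX). FLExD mice were FLExDUX4/+, with a Cre-dependent human DUX4 transgene in the Rosa26 locus, no Cre and no TMX. Moderate mice were FLExDUX4/+;MCM/+ and had 1 intraperitoneal injection of 5 mg/kg TMX, whereas severe mice had the same genotype and 2 injections of 10 mg/kg on consecutive days, and muscle from both was taken at day 9. The Cre acts in skeletal muscle fibres and recombination is mosaic, so TMX is meant to raise DUX4 in some of the fibres. The line is known for low leaky DUX4 expression without Cre, and the Cre has some activity without TMX, so neither FLExD mice nor other cell types can be taken as free of DUX4. TMX was given only to mice that carry both transgenes, so effects of TMX and of DUX4 cannot be told apart in these groups. The labels do not give the sex of the mice.

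The unfolded protein response is set off when unfolded proteins build up in the endoplasmic reticulum (ER), and it has sensors in the ER membrane, the kinases IRE1 (Ern1) and PERK (Eif2ak3) and the factor ATF6. IRE1 splices the mRNA of Xbp1 into the form that codes for an active transcription factor, and XBP1 and ATF6 raise the genes of ER chaperones and of ER-associated degradation. PERK is also a kinase of the integrated stress response, in which phosphorylation of eIF2 alpha lowers general translation and raises translation of Atf4, whose protein turns on genes for amino acid supply, redox balance and, with CHOP (Ddit3), cell death. Much of this control acts on translation, splicing and protein cleavage, which counts per gene do not measure.

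The libraries held 23796902 to 29136403 counts. Levels are given as counts-per-million (CPM), on which scale 3 counts equal 0.0676 to 0.155. They rest on library sizes adjusted by TMM (trimmed mean of M values) unless another scale is named, and differences are log2 fold changes with a standard error (SE). The adjustment was large. The 20 leading genes of control muscle took 57.7 to 58.5% of counts in control mice, 56.8 to 58.5% in FLExD, 47.3 to 49.3% in moderate and 30.4 to 33.2% in severe mice, and the TMM factors were 0.706 to 0.724, 0.708 to 0.760, 1.06 to 1.13 and 1.69 to 1.87. Under TMM the median log2 fold change of all genes tested was 0.04 in moderate and 0.08 in severe mice against control. Scaling by library size alone put it at 0.65 and 1.38, and with the 20 leading genes left out of the library size, a scaling chosen after seeing the data, it was 0.35 and 0.69. Scaling shifts all genes nearly alike, so by construction a gene's change less that median is nearly the same in each scaling. It is given for the members as the relative change, over 4 scalings that include median-of-ratios factors. In bulk muscle, fewer cells of a type and less RNA per cell cannot be told apart.

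The DUX4 target Wfdc3 separated the mice given TMX from the others, with 3 to 8 counts in control mice, 1 to 8 in FLExD, 2005 to 2910 in moderate and 2776 to 4790 in severe mice. It passed the filter on low counts only through mice given TMX, so it could not be called lower in them than in control. Its level was 67.9 to 91.8 CPM in moderate and 62.5 to 116 CPM in severe mice, which overlapped, and the difference between them was 0.20 (SE 0.22, adjusted p = 0.48) under TMM, not called, and 0.88 with library size alone, called. The other readout, Trim36, was at 0.618 to 0.864 CPM in control, 0.751 to 1.01 in FLExD, 1.34 to 1.71 in moderate and 1.93 to 2.95 CPM in severe mice, and was called higher in severe than in moderate mice (0.58, SE 0.21, adjusted p = 0.037). Markers of mature muscle fibre, the labelled tissue, were present in every mouse.

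In moderate mice, 3 of the 10 genes were called higher than in control (Asns, Hspa5 and Sesn2) and 3 lower (Atf4, Chac1 and Herpud1), where called means that edgeR gave an adjusted p under 0.05 and a log2 fold change of 0.5 or more in size. Of all genes tested, 24.4% were called higher and 17.0% lower. In severe mice the same 3 were called higher and 4 lower, Ddit3 joining the others, against 32.9% and 27.9% of all genes. The members' median log2 fold change was 0.17 in moderate and -0.08 in severe mice. The groups did not overlap for 7 members in the moderate and 8 in the severe comparison, where they did not overlap for 61.0% and 75.0% of all genes tested. Both comparisons use the same control mice. Under library size alone all genes split 8760 higher to 752 lower in moderate and 12575 to 1071 in severe mice, against 4072 to 2830 and 5480 to 4649 under TMM. Library size without the 20 leading genes gave 6001 to 1421 and 8964 to 2405. With limma on log2(TPM + 1), where TPM is transcripts-per-million, the splits were 5156 to 684 and 11083 to 975. Chac1 was lower, and Asns, Hspa5 and Sesn2 higher, in both models under each of these scalings, although limma did not call Sesn2 in moderate mice (0.44). The direction of Atf4, Ddit3 and Xbp1, and whether Trib3, Ern1 and Herpud1 were called, turned with the scaling, as given for each gene.

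**Figure D1:**
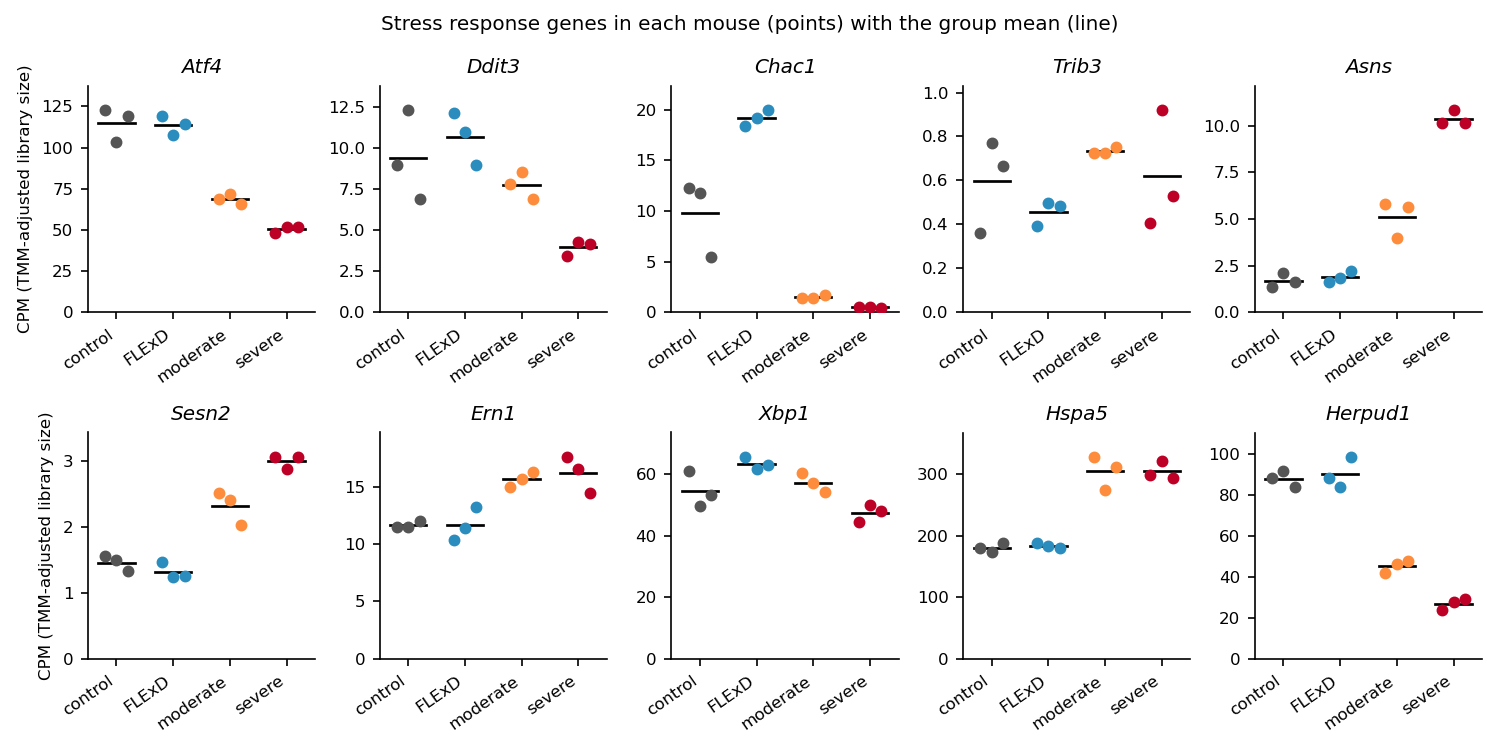
Level of each of the 10 genes in each mouse, in CPM on TMM-adjusted library sizes, with 1 point per mouse, a bar at the mean of 3 mice and each vertical axis starting at 0. Chac1 and Herpud1 fall, and Asns rises, from control through moderate to severe mice with no overlap between these groups, while with library size alone the changes of Herpud1 (-0.36 and -0.42) and Atf4 (-0.14 and 0.11) against control were not called.

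Atf4 (ENSMUSG00000042406, chr15:80255184-80257541, plus strand of GRCm38) encodes the transcription factor at the centre of the integrated stress response. Its level was 123, 104 and 119 CPM in the control mice and 119, 108 and 114.5 CPM in the FLExD mice. It was 68.9, 71.6 and 65.7 CPM in the moderate mice and 48.0, 51.5 and 52.0 CPM in the severe mice. Control and FLExD mice shared 1 range, every moderate mouse lay under it and every severe mouse lay lower still. The group means were 115 ± 10.1, 114 ± 5.69, 68.7 ± 2.98 and 50.5 ± 2.16 CPM (SD, n = 3 each). Against control the log2 fold change was -0.75 (SE 0.09, edgeR adjusted p = 5.84e-06) in moderate and -1.19 (SE 0.09, adjusted p = 2.06e-08) in severe mice under TMM. The raw counts of Atf4 barely differed between the mice, at 2154 to 2519 in control, 2014 to 2184 in moderate and 2132 to 2186 in severe mice. Library size alone gave -0.14 and 0.11, neither called, so the fall of Atf4 is a fall against the median gene, by -0.79 to -0.78 in moderate and -1.27 in severe mice.

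Ddit3 (ENSMUSG00000025408, chr10:127290774-127296288, plus strand) encodes CHOP, a transcription factor tied to cell death under lasting ER stress. The level of Ddit3 was 9.01, 12.3 and 6.92 CPM in control mice and 12.1, 11.0 and 8.96 CPM in FLExD mice. In moderate mice it was 7.82, 8.55 and 6.91 CPM, and in severe mice 3.40, 4.31 and 4.15 CPM. Control, FLExD and moderate mice overlapped, and the 3 severe mice lay under all of them. The change was -0.28 (SE 0.18, adjusted p = 0.22) in moderate mice, not called, and -1.25 (SE 0.19, adjusted p = 3.64e-05) in severe mice. Ddit3 under library size alone stood at 0.33 and 0.05, not called in either, and its relative change was -0.32 in moderate and -1.34 to -1.33 in severe mice. A second GENCODE gene named Ddit3 (ENSMUSG00000116429) covers 2925 of its bases on the same strand and is not in the count table. Ddit3 also shares 68 bases with Mars on the opposite strand, a tRNA synthetase gene with 1216 to 1526 counts, and 15 bases with Gm4189, which had 1 to 7 counts. The labels state no strand-marking step, so reads in those bases cannot be assigned to a strand, and their part in the counts was not tested.

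Among the other members, Chac1, Trib3, Asns and Sesn2 are known targets of ATF4. Promoters of all 10 members, from 250 bases before to 50 after the gene's start, were taken from RefSeq for GRCm38.p6 and searched on both strands for 4 motifs. The CARE, to which ATF4 and its C/EBP partners bind, was written TGATGNAA. The ER stress elements were ERSE, written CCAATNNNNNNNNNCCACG, and ERSE-II, written ATTGGNCCACG, and the XBP1 element was UPRE, written TGACGTGG. Of 32851 promoter windows, 3.97% held a CARE, 0.119% an ERSE, 0.0365% an ERSE-II and 0.676% a UPRE. Among members the CARE letters stood in Chac1, Trib3, Asns and Herpud1, the ERSE in Hspa5, the ERSE-II in Herpud1 and the UPRE in none. A match describes letters in the window and is no proof of a bound site, and a window with no match lacks only these letters. The windows of Chac1 and Asns are shown because both hold a CARE while their mRNAs moved in opposite directions. Capitals mark the CARE, at positions -193 to -186 from the RefSeq start of Chac1 on the opposite strand, so that its reverse complement is seen, and at positions -23 to -16 of Asns on the gene's own strand. The stretches are chr2:119351037-119351068, plus strand, for Chac1 and chr6:7693213-7693244, minus strand, for Asns, each written 5′ to 3′. Positions count from the RefSeq start, which for Asns (7693209) is 45 bases and for Chac1 (119351242) 13 bases downstream of the start of the GENCODE gene, so the CARE letters of Asns lie inside the GENCODE gene and those of Chac1 before both starts.
Chac1: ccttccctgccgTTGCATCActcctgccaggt
Asns: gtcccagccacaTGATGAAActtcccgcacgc

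Chac1 (ENSMUSG00000027313, chr2:119351229-119354381, plus strand) encodes an enzyme that breaks down glutathione. Chac1 had 237, 244 and 115 counts in control mice, 43, 42 and 53 in moderate and 24, 22 and 16 in severe mice. As levels these are 12.3, 11.8 and 5.45 CPM in control, 1.36, 1.45 and 1.73 CPM in moderate and 0.541, 0.519 and 0.386 CPM in severe mice. The groups formed separate steps down, although control mouse 3 lay at less than the other control mice. Chac1 was 6.48-fold lower in moderate mice (log2 fold change -2.70, SE 0.26, adjusted p = 1.72e-06) and 20.1-fold lower in severe mice (-4.33, SE 0.29, adjusted p = 1.79e-08). Library size alone gave -2.09 and -3.03, and the relative change was -2.74 to -2.73 and -4.41. Among the 10 members Chac1 changed most in either model under TMM, and Asns did with library size alone.

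Asns (ENSMUSG00000029752, chr6:7675169-7693254, minus strand) encodes asparagine synthetase. Asns had 26, 44 and 34 counts in control mice, 184, 115 and 172 in moderate and 449, 459 and 419 in severe mice. In CPM it was 1.35, 2.12 and 1.61 in control, 1.62, 1.83 and 2.22 in FLExD, 5.80, 3.96 and 5.61 in moderate and 10.1, 10.8 and 10.1 in severe mice. The steps ran upward with no overlap between control, moderate and severe mice, and FLExD overlapped control. The rise was 3.02-fold in moderate (log2 fold change 1.59, SE 0.19, adjusted p = 1.01e-05) and 6.09-fold in severe mice (2.61, SE 0.19, adjusted p = 1.96e-08). The relative change was 1.55 to 1.56 and 2.52, and before that median is taken off library size alone gave 2.20 and 3.91.

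Sesn2 (ENSMUSG00000028893, chr4:132492032-132510501, minus strand) encodes sestrin 2, which restrains mTORC1 when leucine is short. Its counts were low, at 28 to 31 in control, 25 to 30 in FLExD, 62 to 80 in moderate and 122 to 136 in severe mice. The level rose from 1.46 ± 0.117 CPM in control to 2.32 ± 0.263 in moderate and 3.00 ± 0.109 CPM in severe mice (SD, n = 3), with no overlap. The log2 fold changes were 0.67 (SE 0.18, adjusted p = 0.00508) and 1.04 (SE 0.17, adjusted p = 7.18e-05). The relative change of Sesn2 was 0.63 and 0.96, and library size alone gave 1.28 and 2.34. Gm12981, which lies over Sesn2 on the same strand, had 0 to 2 counts.

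Trib3 (ENSMUSG00000032715, chr2:152337422-152344032, minus strand) encodes a pseudokinase that ATF4 and CHOP induce. It had 7 to 16 counts in control, 8 to 10 in FLExD, 21 to 23 in moderate and 18 to 39 in severe mice, and in CPM control mice overlapped with each other group. Its log2 fold changes were 0.28 (SE 0.36, adjusted p = 0.535) and 0.04 (SE 0.35, adjusted p = 0.934) under TMM, not called. Trib3 was, with library size alone, called higher in both, at 0.88 and 1.32, where the median gene stood at 0.65 and 1.38, and its relative change was 0.24 and -0.06 to -0.05. The 95% interval of the severe change, -0.72 to 0.79, shows how little its counts resolve.

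Ern1 (ENSMUSG00000020715, chr11:106394650-106487852, minus strand) encodes the sensor IRE1 alpha. Ern1 stood at 11.7 ± 0.289 CPM in control, 11.7 ± 1.46 in FLExD, 15.7 ± 0.635 in moderate and 16.3 ± 1.59 CPM in severe mice (SD, n = 3). Every moderate and severe mouse was above every control mouse. The log2 fold changes of 0.42 (SE 0.10, adjusted p = 0.00349) and 0.48 (SE 0.10, adjusted p = 0.000864) passed the test on p but not the fold threshold. Ern1 lay close to that threshold, since the severe change was called without severe replicate 3 (0.55), with no filter on low counts (0.58) and with at least 10 counts asked of every mouse (0.59). With library size alone the changes were 1.03 and 1.78, both called, and the relative change of Ern1 was 0.38 and 0.39 to 0.40.

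Xbp1 (ENSMUSG00000020484, chr11:5520659-5525893, plus strand) encodes the factor whose mRNA IRE1 splices, and these counts per gene do not separate its spliced and unspliced forms. Its level was 60.9, 49.6 and 53.1 CPM in control, 65.6, 61.6 and 63.0 in FLExD, 60.3, 57.1 and 54.1 in moderate and 44.3, 49.9 and 48.0 CPM in severe mice. Moderate mice lay inside the range of control mice, and severe mice reached just under it with 1 mouse inside. The changes were 0.07 (SE 0.09, adjusted p = 0.543) and -0.20 (SE 0.09, adjusted p = 0.0525), not called. Xbp1 was called higher with library size alone, at 0.68 and 1.10, and limma on TPM gave 0.95 in severe mice. Its relative change was 0.03 in moderate and -0.29 to -0.28 in severe mice.

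The promoter windows of Hspa5 and Herpud1 are shown because each held an ER stress element while their mRNAs parted. Capitals mark the ERSE of Hspa5 at positions -65 to -47 from its RefSeq start, and in Herpud1 first the CARE at positions -112 to -105, seen as its reverse complement, and then the ERSE-II at positions -52 to -42. The ERSE and ERSE-II lie on the genes' own strand. Both stretches are on the plus strand, chr2:34772013-34772055 for Hspa5 and chr8:94386305-94386399 for Herpud1. The RefSeq start of Hspa5, 34772090, is 120 bases downstream of the start of the GENCODE gene, so these ERSE letters lie inside the GENCODE gene, whereas the Herpud1 letters lie before both its starts.
Hspa5: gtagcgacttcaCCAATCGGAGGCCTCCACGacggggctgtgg
Herpud1: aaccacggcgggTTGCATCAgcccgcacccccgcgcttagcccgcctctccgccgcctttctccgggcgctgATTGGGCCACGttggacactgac

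Hspa5 (ENSMUSG00000026864, chr2:34771970-34777547, plus strand) encodes BiP, the main chaperone of the ER lumen and the protein that holds the ER sensors inactive. The level of Hspa5 was 181, 173 and 188 CPM in control mice and 189, 184 and 179 CPM in FLExD mice. It was 328.5, 274 and 312 CPM in moderate mice and 299, 321 and 294 CPM in severe mice. All moderate and severe mice lay above all control and FLExD mice, and moderate and severe mice overlapped. Hspa5 was 1.69-fold higher in both models, with a log2 fold change of 0.75 (SE 0.09) and adjusted p of 1.31e-05 in moderate and 5.63e-06 in severe mice. The relative change was 0.71 to 0.72 and 0.67, and with library size alone the changes were 1.36 and 2.06.

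Herpud1 (ENSMUSG00000031770, chr8:94386438-94395377, plus strand) encodes an ER membrane protein of ER-associated degradation. Its level was 88.1, 91.5 and 83.8 CPM in control and 88.2, 83.8 and 98.5 CPM in FLExD mice. In moderate mice it was 41.8, 46.1 and 47.5 CPM and in severe mice 23.6, 27.6 and 28.9 CPM. The 4 groups made 3 separate levels, control with FLExD, moderate, and severe. The log2 fold change was -0.96 (SE 0.10, adjusted p = 1.47e-06) in moderate and -1.72 (SE 0.10, adjusted p = 1.92e-09) in severe mice. Counts of Herpud1 also fell before any scaling, from 1702 to 1900 in control to 1325 to 1456 in moderate and 1048 to 1198 in severe mice. With library size alone the changes kept their sign, -0.36 and -0.42, and were not called, and the relative change was -1.0 in moderate and -1.80 in severe mice. Gm15890, an antisense gene over 535 bases of Herpud1, had 2 to 9 counts.

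**Figure D2:**
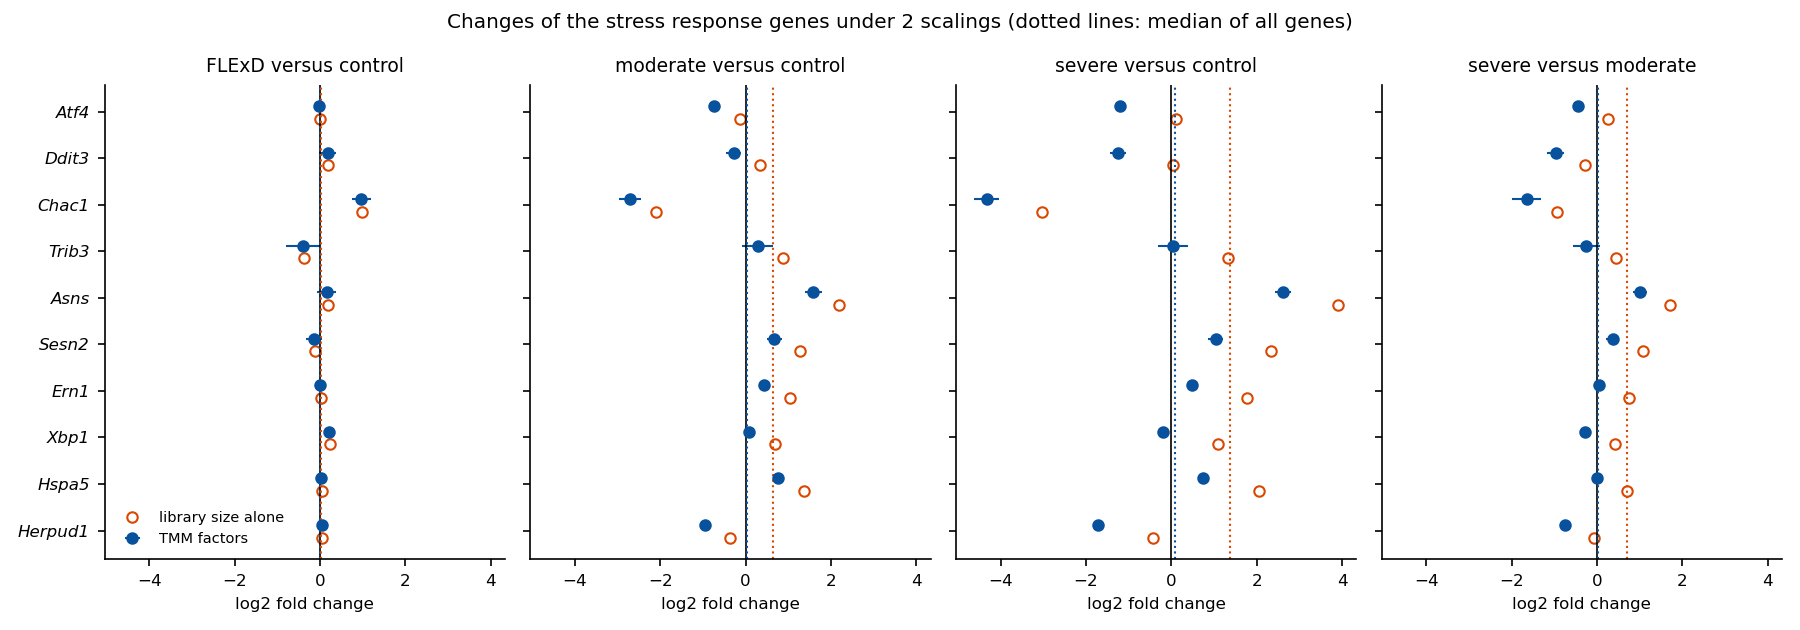
Log2 fold change of each of the 10 genes in the 4 comparisons, with TMM factors (filled points, bars of 1 SE) and with library size alone (open points), and dotted lines at the median of all genes under each scaling. Asns (1.59 and 2.61 under TMM in moderate and severe mice) and Chac1 (-2.70 and -4.33) lie at the ends. Both sets of points keep nearly the same distance from their dotted lines, because scaling shifts all genes nearly alike.

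Severe and moderate mice share the genotype and differ in TMX dose and number of injections. Between them, 1 member was called higher in severe mice, Asns, and 3 lower, Ddit3, Chac1 and Herpud1, while 17.6% of all genes tested were called higher and 18.8% lower. The levels of 7 members did not overlap, nor did those of 61.2% of all genes tested. Asns differed by 1.01 (SE 0.16, adjusted p = 0.000154), Chac1 by -1.64 (SE 0.34, adjusted p = 0.00126), Ddit3 by -0.97 (SE 0.19, adjusted p = 0.00068) and Herpud1 by -0.76 (SE 0.10, adjusted p = 2.51e-05). Atf4 passed on p (adjusted p = 0.000687) at -0.44, under the fold threshold, and was 0.25 with library size alone. Hspa5 did not differ under TMM, at 0.00 with a 95% interval of -0.20 to 0.20, and was 0.70 higher with library size alone, where the median of all genes was 0.71. Library size alone split all genes 9645 higher to 824 lower (57.8% and 4.94%), against 2943 to 3139 under TMM, and with it Ddit3 (-0.28) and Herpud1 (-0.06) were not called while Asns (1.71) and Chac1 (-0.94) kept their calls. Library size without the 20 leading genes gave 5404 to 1804, and limma on log2(TPM + 1) gave 8179 to 587. With limma no member was called lower, Chac1 standing at -0.42 (adjusted p = 0.119), Ddit3 at -0.19 and Herpud1 at -0.03, and Asns was called at 1.31. A log2(TPM + 1) scale understates the change of genes as low as Chac1.

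FLExD mice carry the DUX4 transgene without Cre, and control mice carry Cre without the DUX4 transgene. The comparison thus changes both transgenes at once, and their effects cannot be told apart in it. No member was called in either direction by edgeR against control (0% of all genes tested were called higher and 0.00600% lower), and at an unadjusted p under 0.05 there were 2 members and 638 genes. The members were Chac1 and Xbp1, the same 2 whose levels did not overlap between the groups, as 8.54% of all genes tested did not. Chac1 stood at 18.4, 19.2 and 19.9 CPM in FLExD mice, above all 3 control mice, with a log2 fold change of 0.97 (SE 0.22, adjusted p = 1). Without control replicate 3, the low one, the difference was 0.67. Xbp1 differed by 0.22 (SE 0.09, adjusted p = 1). Neither DESeq2 nor limma called a member. Across all genes DESeq2 called 2 higher and 1 lower, and limma 1 and 1.

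To compare genes with each other, levels per length were used. In control mice the order of mean TPM was Atf4 (76.2), Hspa5 (68.5), Herpud1 (54.3), Xbp1 (31.8), Ddit3 (10.7), Chac1 (6.13), Ern1 (2.38), Asns (1.34), Trib3 (0.517) and Sesn2 (0.513). Of the neighbours in this order, Atf4 with Hspa5 and Trib3 with Sesn2 overlapped between mice. In severe mice the order was Hspa5 (266), Atf4 (77.3), Xbp1 (62.5), Herpud1 (38.2), Asns (12.3), Ddit3 (10.8), Ern1 (7.62), Sesn2 (2.09), Trib3 (0.900) and Chac1 (0.807). There Asns overlapped with Ddit3 and Trib3 with Chac1. Hspa5 had thus moved to the top and Chac1 from the sixth place to the last, while the TPM of Atf4 ranged from 67.8 to 81.6 in control and from 71.9 to 83.2 in severe mice.

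Ratios of counts within a mouse do not depend on scaling, and the pairs were chosen after their values were seen, so no test is given. Hspa5 to Atf4 was 1.47, 1.67 and 1.58 in control mice, 4.77, 3.82 and 4.75 in moderate and 6.23, 6.24 and 5.65 in severe mice. Hspa5 to Herpud1 was 2.05, 1.90 and 2.25 in control, 7.86, 5.93 and 6.57 in moderate and 12.7, 11.7 and 10.2 in severe mice. Asns to Chac1, both targets of ATF4, was 0.110, 0.180 and 0.296 in control, 4.28, 2.74 and 3.25 in moderate and 18.7, 20.9 and 26.2 in severe mice. These ratios rose from group to group without overlap. Asns to Atf4 was 0.0110 to 0.0204 in control and 0.195 to 0.211 in severe mice. Ddit3 to Atf4, in contrast, overlapped between control (0.0580 to 0.119) and severe mice (0.0708 to 0.0837). In moderate mice this ratio was 0.105 to 0.119, above every severe mouse.

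**Figure D3:**
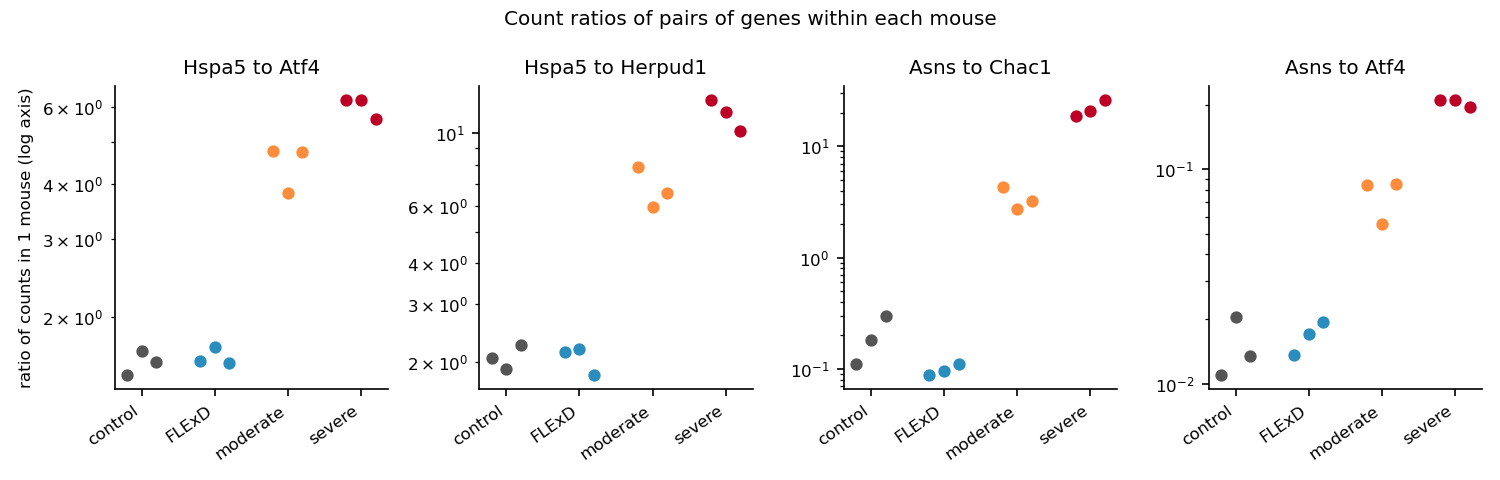
Ratio of the counts of Hspa5 to Atf4, Hspa5 to Herpud1, Asns to Chac1 and Asns to Atf4 within each mouse, on log axes, with 1 point per mouse and no dependence on scaling. In each panel the 3 severe mice lie above the 3 moderate mice, which lie above the control and FLExD mice.

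Other genes of the pathway were read from lists of known genes, with counts out of the genes tested, and in FLExD mice edgeR called no gene of any of these lists, as it called 1 gene in all. The sensor list also holds the member Ern1, and Eif2ak3, Ppp1r15a, Ero1l and Ddit4 each stand in a pair of lists and are counted in both. The counts stand against all genes tested, of which 24.4% were called higher and 17.0% lower in moderate and 32.9% and 27.9% in severe mice under TMM, and 52.5% and 4.51% in moderate and 75.4% and 6.42% in severe mice with library size alone. Among 20 ER chaperones and folding enzymes, 14 were higher and none lower in moderate mice, and 15 higher and 1 lower in severe mice, with list medians of 0.73 and 0.93 against 0.04 and 0.08 for all genes. The cyclophilin Ppib went from 18.8 ± 2.99 CPM in control to 42.3 ± 4.05 in moderate and 74.5 ± 5.80 CPM in severe mice (SD, n = 3), a log2 change of 1.17 and 1.99. The disulfide isomerases Pdia3 (1.34 and 1.96) and Pdia4 (1.10 and 1.56) and the BiP cofactor Sdf2l1 (1.77 and 1.80) rose as well. Dnajb9 was the exception, at -0.50 in severe mice under TMM and 0.80 with library size alone. With library size alone all 20 were higher in both models. The 13 genes of ER-associated degradation had 5 higher and none lower in both models under TMM, with medians of 0.20 and 0.22, and with library size alone 12 and 13 were higher. Of all genes 24.4% and 32.9% were higher under TMM, and 52.5% and 75.4% with library size alone. The medians of this list under TMM were 0.18 and 0.14 without control replicate 3. Edem1 rose 2.30-fold and 3.98-fold, and in log2 terms Edem2 rose by 1.52 and 1.50 and Os9 by 0.73 and 1.15, and Derl3 had 0 to 4 counts in control against 6 to 20 and 11 to 18. In the translocon and signal peptidase list of 12, 2 were higher and none lower in moderate and 4 higher and 2 lower in severe mice, medians 0.03 and -0.05, and with library size alone 9 and 12 were higher and none lower. Sec61a1 rose by 1.23 and 1.98, Ssr2 by 0.62 and 0.65 and Ssr1 by 0.75 in severe mice, whereas Sec61g (-0.68) and Ssr3 (-0.63) were lower in severe mice under TMM and higher with library size alone (0.62 and 0.67).

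Among the sensors, Ern2 had no count in FLExD or severe mice and was not tested, and of 9 tested none was called in moderate mice and 3 were higher in severe mice under TMM, while library size alone called 7 higher in moderate and all 9 in severe mice. The 3 of 9 in severe mice are close to the 32.9% of all genes called higher, and library size alone called 52.5% and 75.4% of all genes higher. Under TMM these were Atf6b (0.94), Eif2ak3 (0.72) and Atf6 (0.64), and the list medians were 0.11 and 0.48. The medians were 0.27 and 0.48 without control replicate 3. Creb3l1 was 1.09 in severe mice, not called, from 71 to 172 counts against 7 to 52 in control. Without control replicate 3, 4 of the 9 sensors were called higher in severe mice, against 31.4% of all genes. Mbtps1 (0.02 and 0.27), Mbtps2 (-0.26 and -0.18), Creb3 (0.11 and 0.19) and Creb3l2 (0.05 and 0.18) were not called. Of 7 genes of eIF2 alpha (Eif2s1), its kinases and its phosphatase, 1 was higher and 1 lower in moderate mice and 3 higher and 1 lower in severe mice, medians -0.09 and 0.34, and with library size alone 4 and 6 were higher and none lower. Eif2ak2, the kinase PKR, rose 2.30-fold and 3.21-fold, and the phosphatase subunit Ppp1r15b rose by 0.61 (log2) in severe mice. Eif2ak1, the kinase HRI, was -0.62 and -0.92 under TMM and -0.02 and 0.38 with library size alone. Eif2ak4 (-0.22 and 0.34), Eif2s1 (-0.20 and 0.03) and Ppp1r15a (-0.09 and -0.41) were not called.

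Of 19 genes of amino acid synthesis and transport, a list of ATF4 targets, 9 were higher and 3 lower in moderate mice, with a median of 0.16. In severe mice 10 were higher and 4 lower, with a median of 0.52. The counts of lower genes did not exceed the 17.0% and 27.9% of all genes called lower, and 24.4% and 32.9% of all genes were called higher. The serine pathway gene Psat1 went from 2.06 ± 0.189 CPM in control to 13.6 ± 1.71 in moderate and 37.3 ± 2.54 CPM in severe mice (SD, n = 3), a log2 change of 2.72 and 4.18. The amino acid transporter Slc7a5 rose by 3.26 and 4.44, and Slc7a3 had 0 to 1 counts in control, 6 to 13 in moderate and 15 to 26 in severe mice. Cth, of cysteine synthesis, fell by -3.64 and -3.92, from 51 to 101 counts in control to 6 to 14 and 7 to 16. With library size alone 12 were higher and 2 lower in moderate and 14 and 2 in severe mice. The 12 cytosolic aminoacyl-tRNA synthetases had none higher and 5 lower in each model under TMM, medians -0.40 and -0.47. In severe mice Eprs (-1.11), Iars (-1.06), Mars (-0.92) and Yars (-0.84) led, and with library size alone these stood at 0.19, 0.25, 0.38 and 0.47. With that scaling 8 of the 12 were called higher and none lower in severe mice, against 75.4% and 6.42% of all genes. The list median was then 0.84, against 1.38 for all genes. Of 6 partner factors, 1 was higher and 2 lower in moderate and 1 higher and 3 lower in severe mice, medians -0.14 and -0.54. Without control replicate 3 the numbers called were equal to these, and the medians were -0.36 and -0.68. Atf3 rose from 2.73 ± 0.676 CPM in control to 26.4 ± 6.78 in moderate and 22.9 ± 3.28 CPM in severe mice (SD, n = 3). Atf5 (-0.84 and -1.63), Cebpb (-0.16, not called, and -1.46) and Cebpg (-0.77 and -1.13) were lower under TMM, and with library size alone none of them was called and Cebpg stood at 0.17 in severe mice.

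Secreted and mTOR-linked outputs had 4 of 8 higher and 3 lower in moderate and 4 higher and 2 lower in severe mice under TMM, medians 1.03 and 0.91. Library size alone gave 5 higher and none lower in moderate and 6 higher and 2 lower in severe mice. The hormones were low in counts, with Fgf21 at 0 to 1 in control, 5 to 8 in moderate and 9 to 23 in severe mice, and Gdf15 at 0 to 4, 18 to 49 and 23 to 34. Both passed the filter only through mice given TMX, as did Slc7a3 and Derl3 of the lists above. Such genes could not be called lower, so the higher counts and medians of their lists are in part set by the filter. Ddit4l (-0.86 and -2.62) and Vldlr (-1.08 and -2.38) were lower under TMM, and with library size alone (-0.25 and -1.33, -0.47 and -1.09) in severe mice but not called in moderate. Of 6 genes of CHOP-linked cell death, 1 was higher in moderate and 3 in severe mice and none lower, medians 0.31 and 0.55, and with library size alone 5 and 6 were higher. Pmaip1 had 0 to 1 counts in control, 7 to 9 in moderate and 62 to 121 in severe mice, and Bcl2l11 (0.69) and Ero1l (0.68) rose in severe mice. Pmaip1 too passed the filter only through mice given TMX and could not be called lower. Of 9 cytosolic heat shock genes, 3 were higher and 1 lower in moderate and 3 higher and 2 lower in severe mice, medians 0.28 and -0.05, and with library size alone 7 and 8 were higher and none lower. In severe mice these counts are close to the 32.9% of all genes called higher and 27.9% lower under TMM, and with library size alone 75.4% of all genes were higher. Without control replicate 3, 2 heat shock genes were called higher in each model under TMM, with list medians of 0.17 and -0.03. Hsp90aa1 rose by 1.02 and 1.98 and Hsph1 by 1.13 and 1.65, Hsf1 was -0.61 and -1.27 under TMM and -0.01 and 0.03 with library size alone, and Bag3 was -0.55 in severe mice and 0.75 with library size alone. The 6 mitochondrial chaperones and proteases had none higher and 4 lower in each model, medians -0.54 and -0.97. Dnaja3 (-0.86 and -1.73), Hspa9 (-0.88 and -1.13), Lonp1 (-0.53 and -1.04) and Clpp (-0.56 and -0.91) were lower under TMM, and with library size alone no gene of the list was lower and 2 were higher in severe mice. The list medians were then 0.06 and 0.33, against 0.65 and 1.38 for all genes. Among 6 relatives or namesakes of the members, none was higher and 3 were lower in each model, medians -0.30 and -0.37, and with library size alone 3 and 4 were higher. Ddit4 is in this list by its name alone and is not of the gene family of Ddit3. The lower ones under TMM were Chac2 (-0.77 and -1.90), Trib2 (-0.96 and -1.28) and Atf2 (-0.55 and -0.55), of which Chac2 alone kept a call as lower with library size alone, in severe mice (-0.60).

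**Figure D4:**
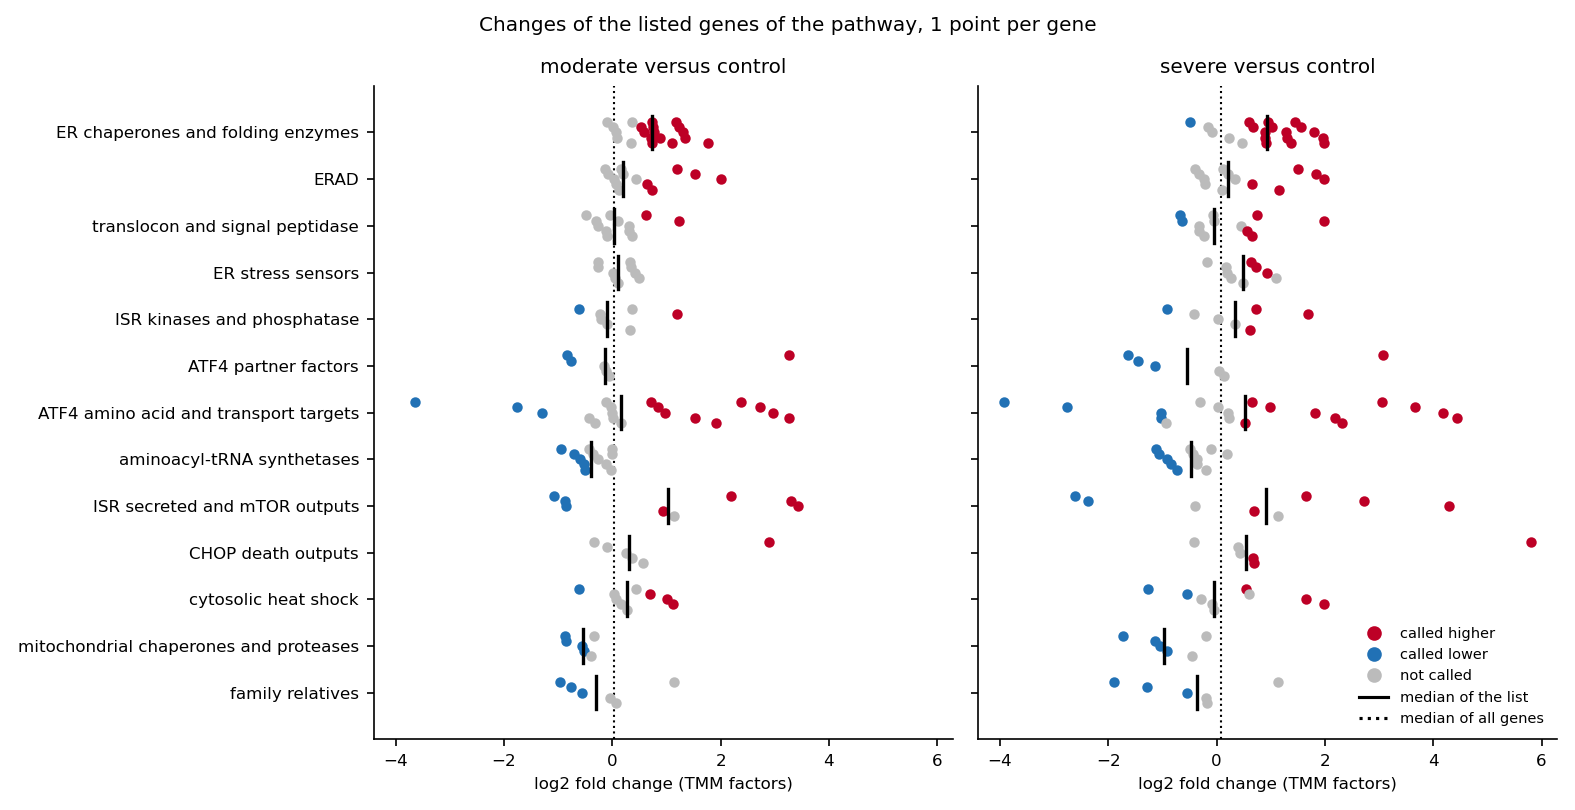
Log2 fold change of each tested gene of the pathway lists in moderate and severe mice against control, under TMM, with 1 point per gene (red called higher, blue called lower, grey not called), a bar at the list's median and a dotted line at the median of all genes. ER chaperones sit highest among the ER lists (medians 0.73 and 0.93) and the medians of the mitochondrial and tRNA synthetase lists lie under 0. With library size alone no mitochondrial or tRNA synthetase gene was called lower, against 4.51% and 6.42% of all genes. The median of all genes was then 0.65 and 1.38. The mitochondrial list stood at 0.06 and 0.33, and the tRNA synthetase list at 0.21 and 0.84.

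The ERSE letters were found in 7 of 17 windows of the chaperone list (Hsp90b1, Calr, Canx, Pdia6, Dnajc3, Creld2 and Ero1lb) and in 2 of 10 of the ER-associated degradation list (Syvn1 and Derl3). These genes are named for the match, after their values were seen. Of the 20 tested genes with an ERSE in the window, 12 were called higher in each model and 2 and 3 lower, with medians of 0.72 and 0.90. Among all 11686 tested genes with a window, 25.7% were called higher in moderate and 33.9% in severe mice, and 17.5% and 28.9% lower. The 20 genes include 10 from the members and lists, of which 8 were higher and none lower in both models, and 10 others, of which 4 were higher in both and 2 and 3 lower. Derl3, among the 8, passed the filter only through mice given TMX and could not be called lower. The counts of higher genes and the medians are thus in part set by the filter. The CARE letters stood in 5 of 8 windows of tRNA synthetases and in 2 of 14 of the amino acid list. Of 335 tested genes with a CARE, 33.1% were higher in moderate and 40.9% in severe mice, and 16.7% and 28.1% lower, medians 0.12 and 0.09. Of 8 with an ERSE-II, 2 and 1 were higher and 3 lower in each model, with a median of -0.27 in both. Of 116 with a UPRE, 23 and 36 were higher and 27 and 36 lower, medians -0.02 and -0.05. No test was made of these shares.

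The muscle's make-up moved with the same groups, given here on the TMM scale. The summed level of 8 mature fibre markers, led by Myh4, was 162400, 128100 and 169600 CPM in control, 55320, 60480 and 66910 CPM in moderate and 8018, 14570 and 14010 CPM in severe mice, with 6 of the 8 called lower in moderate and all 8 in severe mice. The 7 macrophage markers found in the table, led by Lyz2, summed to 90.5, 84.8 and 108 CPM in control, 518, 418 and 453 in moderate and 996, 922 and 946 CPM in severe mice, and all 7 were higher in both. The 3 markers of regenerating fibres, led by Myh3, summed to 15.8 to 21.9 CPM in control, 319 to 572 in moderate and 1206 to 1706 CPM in severe mice, all 3 higher in both. The 6 fibroblast markers, led by Col3a1, summed to 733, 959 and 2134 CPM in control, 2830 to 3015 in moderate and 4780 to 6352 CPM in severe mice, with 3 and 4 called higher and none and 1 lower. Control mouse 3, the highest here, was also the lowest control mouse for Chac1 and Ddit3, and the part of its make-up in those values was not tested. Without it 5 fibroblast markers were higher in each model, the changes of Chac1 were -3.02 and -4.64 and those of Ddit3 -0.49, not called, and -1.45. Without it the genes called higher also became 2 in moderate and 4 in severe mice in the CHOP list, and 1 among the neutrophil markers in severe mice. They became 2 in both models for heat shock, 4 in severe for the sensors, 6 in moderate for ER-associated degradation and 9 in severe for the amino acid list. Those called lower became 6 tRNA synthetases and 5 mitochondrial genes in severe mice, and 7 mature fibre markers in moderate mice. Of all genes, 22.4% and 31.4% were then higher and 17.4% and 27% lower. The 3 satellite cell markers, led by Pax7, summed to 2.33 to 4.03, 7.55 to 9.62 and 15.1 to 21.5 CPM, 2 of 3 higher in both, and the 3 endothelial markers, led by Pecam1, to 116 to 131, 73.9 to 96.4 and 50.5 to 59.8 CPM, with 1 and 3 lower under TMM. With library size alone Kdr was still lower in both (-0.51 and -1.08), and its counts fell from 694 to 855 in control to 278 to 340 in severe mice, while Pecam1 was called higher in severe mice (0.70) and Cdh5 was not called (0.15 in both). Of the 4 neutrophil markers, led by Retnlg, Ly6g was at 0 in every mouse, and the sum was 0.569 to 1.11 CPM in control, 1.14 to 4.13 in moderate and 3.36 to 4.08 CPM in severe mice, with 1 and 2 of 3 tested called higher. The 5 B and plasma cell markers in the table, led by Sdc1, summed to 3.42 to 6.24 CPM in control, 7.17 to 8.01 in moderate and 15.1 to 18.7 CPM in severe mice, but Sdc1 was the only one with enough counts to test and is not confined to these cells. The 4 T cell markers, led by Cd4 in severe mice but not in control mice, summed to 0.379 to 0.466 CPM in control, 0.414 to 0.883 in moderate and 2.22 to 3.62 CPM in severe mice, Cd4 alone being tested. The rise lay in Cd4, from 0.166 ± 0.0842 CPM in control to 2.68 ± 0.690 CPM in severe mice (SD, n = 3), whereas Cd3e, which is confined more closely to T cells, was at 0.228 ± 0.0184 and 0.0704 ± 0.0248 CPM. Cd4 passed the filter only through mice given TMX and could not be called lower. Cd3e had 4 to 5 counts in control and 2 to 4 in severe mice, Cd3d 0 and 3 to 4, and Cd3g 0 to 1 and 3 to 5. In FLExD mice, whose lists had no gene called, the mature fibre markers summed to 135200, 120100 and 147600 CPM and the macrophage markers to 88.1, 93.4 and 99.4 CPM. The part of this shift in cell types in the changes of Atf4, Chac1, Herpud1, Asns or Hspa5 was not tested.

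**Figure D5:**
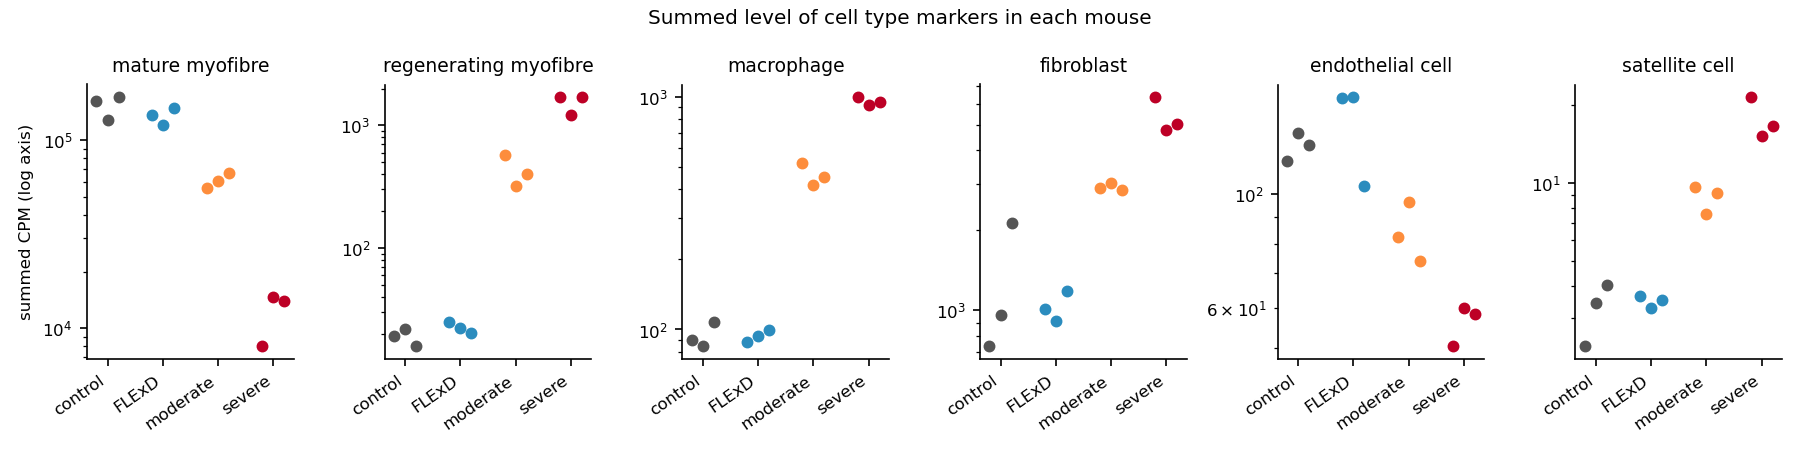
Summed CPM of the markers of 6 cell types in each mouse, on TMM-adjusted library sizes and log axes, with 1 point per mouse. Mature fibre markers fall from 128100 to 169600 CPM in control to 8018 to 14570 CPM in severe mice, and macrophage markers rise from 84.8 to 108 CPM to 922 to 996 CPM.

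As a description of pattern over the 12 mice, the genes whose log2 CPM followed Chac1 most closely were Slc25a29 (Pearson r = 0.984), Mb21d2, Kalrn and Oxsr1 (0.983 each) and Sp4 (0.982). Those closest to Ddit3 were Acaa1a and Prosc (0.986 each), Adck3 and Echs1 (0.984 each) and Ndufaf3 (0.983). The mice fall into clusters by group, so these values mainly reflect the group means.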

How the data were processed

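As deposited, the expected counts per gene were made by the authors with RSEM 1.2.4, calling Bowtie, from trimmed 1x50 single-end reads on a merged mm10 annotation, with unaligned reads mapped by TopHat2 2.0.8b. The TPM values, also as deposited by the authors, came from the same RSEM run, and each library sums to about 1000000. Values that are not whole made up 31.8 to 36.2% of each library's genes, and all 120 member values were whole within 1e-6. Counts were rounded and scaled by TMM, genes were kept by filterByExpr, and edgeR 4.0.16 tested all 4 groups in 1 fit with its robust two-sided quasi-likelihood test, adjusting p by Benjamini-Hochberg over 16679 genes. Intervals are 95%. Alternatives were DESeq2 1.42.0 and limma 3.58.1. R was 4.3.3 and Python 3.11.15. Gene positions are from GENCODE M21. Genes were named as all 10 members, up to 4 per list with the largest change among called genes, and every sensor and kinase. Dnajb9, Ssr3 and Bag3 fall outside this rule and were named after their values were seen. The members and lists were chosen with earlier results of these data known. Floors and intervals cover counting and replicate error only, and reads carried no molecular identifiers. For 3 mice a group the smallest p of an exact permutation test is 0.1, so none was run.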

Additional observations from a re-analysis of the deposited data

How the results depend on the processing

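Of 796 log2 fold changes of members under alternative settings, 714 kept direction and side of the threshold, 13 fell under it, 18 passed it, 43 uncalled ones lay on the other side of 0 and 8 did so with a call in at least 1 of the settings compared. These 8, all in severe mice, were with library size alone and limma on TPM: Atf4 0.11 and 0.02, Ddit3 0.05 and 0.04, Xbp1 1.10 and 0.95 against control, and Hspa5 0.70 and 0.73 against moderate, where TMM gave 0.00 and so no direction to reverse. The counts of calls given next are those that moved most in proportion. Smaller moves are left out, such as 4 members higher, against 3, in each model without the 20 leading genes. Members called higher numbered 6 in moderate, 6 in severe and 4 in severe against moderate with library size alone, 5 in severe and 4 in severe against moderate with limma, 2 in severe against moderate without the 20 leading genes (chosen after seeing the data), and 1 in moderate at a log2 threshold of 1. Members called lower numbered 1 in each of these comparisons with library size alone, 1 in moderate, 2 in severe and 0 in severe against moderate with limma, 1 in moderate and 1 in severe against moderate at a log2 threshold of 1, and 5 in severe against moderate with no fold threshold. Of all genes tested, library size alone called 52.5, 75.4 and 57.8% higher and 4.51, 6.42 and 4.94% lower in these 3 comparisons. Limma, run on 37748 genes with no filter, called 29.4% higher in severe and 21.7% in severe against moderate, and 1.81, 2.58 and 1.56% lower. Without the 20 leading genes 32.4% were higher in severe against moderate. At a threshold of 1, 15.9% were higher and 7.03% lower in moderate and 8.34% lower in severe against moderate, and with no fold threshold 26.4% were lower there. Genes called in all were 3 with DESeq2, 2 with limma and 0 with only the 2 groups for FLExD, 3820 in moderate and 2747 in severe against moderate at a log2 threshold of 1, and 10469 in severe against moderate with library size alone. Leaving out each mouse gave 1 to 2 genes for FLExD, 6355 to 7059 in moderate, 9700 to 10329 in severe and 4872 to 6230 in severe against moderate, and 3 to 4 members higher in severe mice. Median-of-ratios factors changed no member call. The counts of Trib3, 7 to 39, limit its result, and the strict filter dropped it. The cause of the dependence on scaling was not tested.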
